A study of Caenorhabditis elegans with 2 samples.

Results

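The genes described here are the heat shock protein (HSP) and DNAJ chaperone genes of Caenorhabditis elegans, set in a map of where the tagged protein RCAT-1 was found on chromatin. They are all protein-coding genes named hsp- or dnj- in the Ensembl annotation of the WBcel235 genome, among them hsp-90, also written daf-21. The rule finds 51 of 19973 protein-coding genes. By textbook roles they were split into 8 large HSP genes that are made without stress (called constitutive below), the heat-induced large HSP gene hsp-70, 13 small HSP genes (6 of the hsp-16 group and 7 others) and 29 J-domain genes. The names held up against the RefSeq products, which name a J domain or DnaJ protein for 28 of the 29 dnj genes and, for dnj-21, the mitochondrial import subunit TIM14. Chaperones outside the name rule, such as sip-1, enpl-1 and the CCT ring, are given separately.

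The data come from ChIP-seq on whole L3 larvae (the third larval stage) of strain OP218, in 1 group of 2 biological replicates of mixed sex. The animals carry the mutation unc-119(ed3) on chromosome III and the transgene wgIs218, which encodes an eGFP fusion of the R02D3.7 protein, and the annotation calls R02D3.7 rcat-1. The sources used here give neither the rearing temperature nor the promoter that drives the transgene, and signal from whole animals averages over all tissues. The samples include no control, so a gene is called bound below only in the sense that a region was listed at its promoter, and whether any other tagged protein would give the same list cannot be told apart from these samples.

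Chaperones help other proteins fold and keep them from clumping. HSP70 proteins bind and release unfolded chains in cycles of ATP hydrolysis, J-domain (DNAJ) proteins bring them clients and stimulate the ATPase, HSP110 exchanges their nucleotide, and HSP90 and HSP60 act on later or enclosed clients. The large HSPs of each compartment are made in unstressed animals, and several rise further under stress: hsp-4 in the response to unfolded protein in the endoplasmic reticulum (ER), hsp-6 and hsp-60 in the mitochondrial one. The hsp-16 genes and hsp-70 are best known for induction by heat through heat shock factor HSF-1, which binds repeats of GAA in alternating orientation, the heat shock element.

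Sequences of 200 bp around the summit are shown for 8 of the 17 bound genes, as examples of the elements that the results below turn on. The peaks of dnj-12, dnj-19 and dnj-10 also hold heat shock elements but are not shown. All sequences shown come from the RefSeq copy of WBcel235 (ce11) and are printed 5′ to 3′ on the strand of the chaperone gene. In the first set the capitals mark heat shock elements, GAANNTTC or TTCNNGAA, where N is any base, and each form is its own reverse complement. hsp-60 is chrIII:1619032-1619231 (plus strand), hsp-110 is chrIII:8447061-8447260 (minus strand), hsp-90 is chrV:14685661-14685860 (plus strand), hsp-1 is chrIV:17278477-17278676 (plus strand) and dnj-13 is chrII:11545389-11545588 (plus strand). In hsp-60 and hsp-110 both forms overlap and make an element of 3 GAA units.
hsp-60: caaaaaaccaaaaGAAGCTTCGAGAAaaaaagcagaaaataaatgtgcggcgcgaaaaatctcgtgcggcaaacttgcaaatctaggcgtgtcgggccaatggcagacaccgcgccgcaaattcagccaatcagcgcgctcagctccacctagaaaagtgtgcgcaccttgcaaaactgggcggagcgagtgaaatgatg
hsp-110: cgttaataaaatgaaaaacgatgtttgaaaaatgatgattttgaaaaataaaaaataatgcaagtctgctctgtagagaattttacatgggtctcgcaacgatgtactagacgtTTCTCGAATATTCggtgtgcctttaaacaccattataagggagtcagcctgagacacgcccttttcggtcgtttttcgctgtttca
hsp-90: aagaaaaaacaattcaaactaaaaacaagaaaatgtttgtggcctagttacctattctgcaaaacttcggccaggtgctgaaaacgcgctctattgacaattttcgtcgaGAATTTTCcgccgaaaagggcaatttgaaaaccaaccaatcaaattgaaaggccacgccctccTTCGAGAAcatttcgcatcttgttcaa
hsp-1: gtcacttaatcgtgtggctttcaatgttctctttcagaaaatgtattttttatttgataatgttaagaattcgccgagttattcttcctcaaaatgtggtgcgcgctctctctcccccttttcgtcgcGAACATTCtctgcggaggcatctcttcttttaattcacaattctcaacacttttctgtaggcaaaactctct
dnj-13: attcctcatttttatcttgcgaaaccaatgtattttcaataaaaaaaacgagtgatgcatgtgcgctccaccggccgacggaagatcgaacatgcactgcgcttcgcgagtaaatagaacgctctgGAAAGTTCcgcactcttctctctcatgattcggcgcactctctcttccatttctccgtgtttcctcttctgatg

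In the second set the capitals mark 2 other 8-mers, AGACGCAG, which leads over all IDR peaks (its reverse complement in hsp-3), and CGTAAATC, which leads in the first 100 (its reverse complement in dnj-22). hsp-3 is chrX:6092077-6092276 (minus strand), dnj-22 is chrV:8462199-8462398 (minus strand) and dnj-11 is chrIV:6585506-6585705 (plus strand).
hsp-3: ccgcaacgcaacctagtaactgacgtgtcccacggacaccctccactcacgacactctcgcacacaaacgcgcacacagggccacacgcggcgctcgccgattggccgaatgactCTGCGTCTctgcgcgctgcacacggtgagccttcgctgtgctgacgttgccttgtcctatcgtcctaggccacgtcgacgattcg
dnj-22: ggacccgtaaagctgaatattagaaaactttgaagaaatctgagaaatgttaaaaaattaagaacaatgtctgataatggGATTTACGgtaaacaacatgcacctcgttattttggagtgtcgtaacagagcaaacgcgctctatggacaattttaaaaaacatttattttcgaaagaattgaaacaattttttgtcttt
dnj-11: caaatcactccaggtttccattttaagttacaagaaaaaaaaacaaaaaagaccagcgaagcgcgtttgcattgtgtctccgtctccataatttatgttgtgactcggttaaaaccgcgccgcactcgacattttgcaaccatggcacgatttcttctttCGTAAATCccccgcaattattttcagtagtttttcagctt

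Of the 51 chaperone genes 17 (33.3%) had a peak at the promoter, against 1539 of 19973 protein-coding genes (7.71%). A peak is a region of the list that passed the authors' irreproducible discovery rate (IDR) threshold, which is based on replicate ranks. The list equals the 1584 regions of highest signal with both replicates pooled, so a peak need not rank alike in both replicates. Over bound genes listed in both replicates the ratio of the ranks reached 27.1. A peak was assigned to a gene when its summit lay between 1000 bp upstream and 200 bp downstream of an annotated transcript start. By class, 6 of 8 large constitutive HSP genes (75%) and 11 of 29 J-domain genes (37.9%) were bound, and 0 of 13 small HSP genes and 0 of 1 heat-induced large gene. With 7.71% of all protein-coding genes bound, 0 of 13 and 0 of 1 do not set these 2 classes apart from other genes. No test was run on these shares. The assignment lets a peak between 2 diverging genes count for both. When each peak was given only to the gene with the nearest start, 9 of 51 chaperone genes (17.6%) were left against 5.36% of all protein-coding genes, with 2 of 8 constitutive and 7 of 29 J-domain genes.

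**Figure D1:**
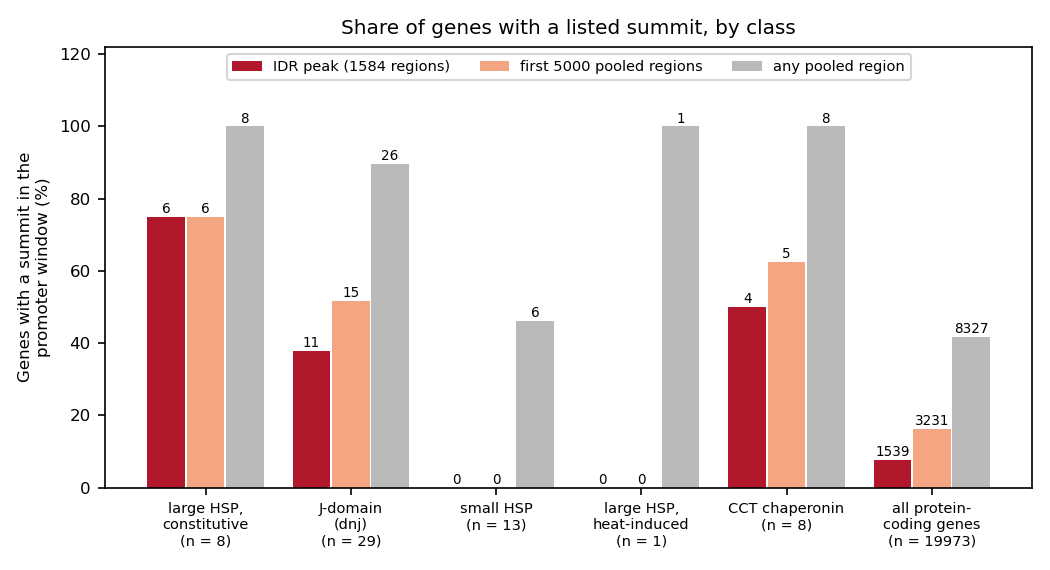
Percentage of genes in each class with a summit in the promoter window, for the IDR peaks, the first 5000 pooled regions and all pooled regions, with the number of genes above each bar. Constitutive large HSP genes stand at 75% in the IDR list, J-domain genes at 37.9% and small HSP genes at 0%, beside 7.71% of all protein-coding genes.

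The order of constitutive, J-domain and small HSP genes held further down the lists. The list of both replicates pooled was cut at a relaxed threshold and held 30000 regions, of which the 1584 with the highest signal are the IDR peaks. Among its first 5000 regions 21 of 51 chaperone genes (41.2%) had a summit, against 16.2% of all protein-coding genes. These were 6 of 8 constitutive genes (75%) and 15 of 29 J-domain genes (51.7%), with 0 of 13 small HSP genes. The heat-induced hsp-70 had a summit in the pooled list but not in its first 5000 regions. Anywhere in the pooled list 41 of 51 (80.4%) had a summit, against 41.7% of all protein-coding genes, and here the small HSP genes, at 6 of 13 (46.2%), were near the share of all genes while the 8 constitutive genes and 26 of 29 J-domain genes (89.7%) were listed. Among the 1584 highest regions of each replicate alone, 16 chaperone genes were listed in replicate 1, where the share of all protein-coding genes was 7.9%, and 16 in replicate 2, where it was 6.91%. In both replicates at once 15 of 51 chaperone genes (29.4%) were listed and 5.58% of all protein-coding genes.

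Within the IDR list the bound chaperone genes ranged from the upper ranks to near the end of the list. Their median rank by signal was 499 and their median signal 116, against 644 and 96.1 over all bound protein-coding genes. The 6 constitutive genes had a median rank of 254 and a median signal of 205, and the 11 J-domain genes a median rank of 777 and a median signal of 83.5. The signal is the authors' own value per region, and the sources used here do not give its scale. The promoter of rcat-1, the gene whose tagged form the transgene encodes, held the highest signal in the series, 4055 at rank 1. Of the 17 chaperone genes 12 had a signal above 82.2, the median of all IDR peaks, beside 913 of all 1539 bound protein-coding genes. Ranks of the 17 ran from 116 (dnj-22) to 1483 (dnj-10).

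**Figure D2:**
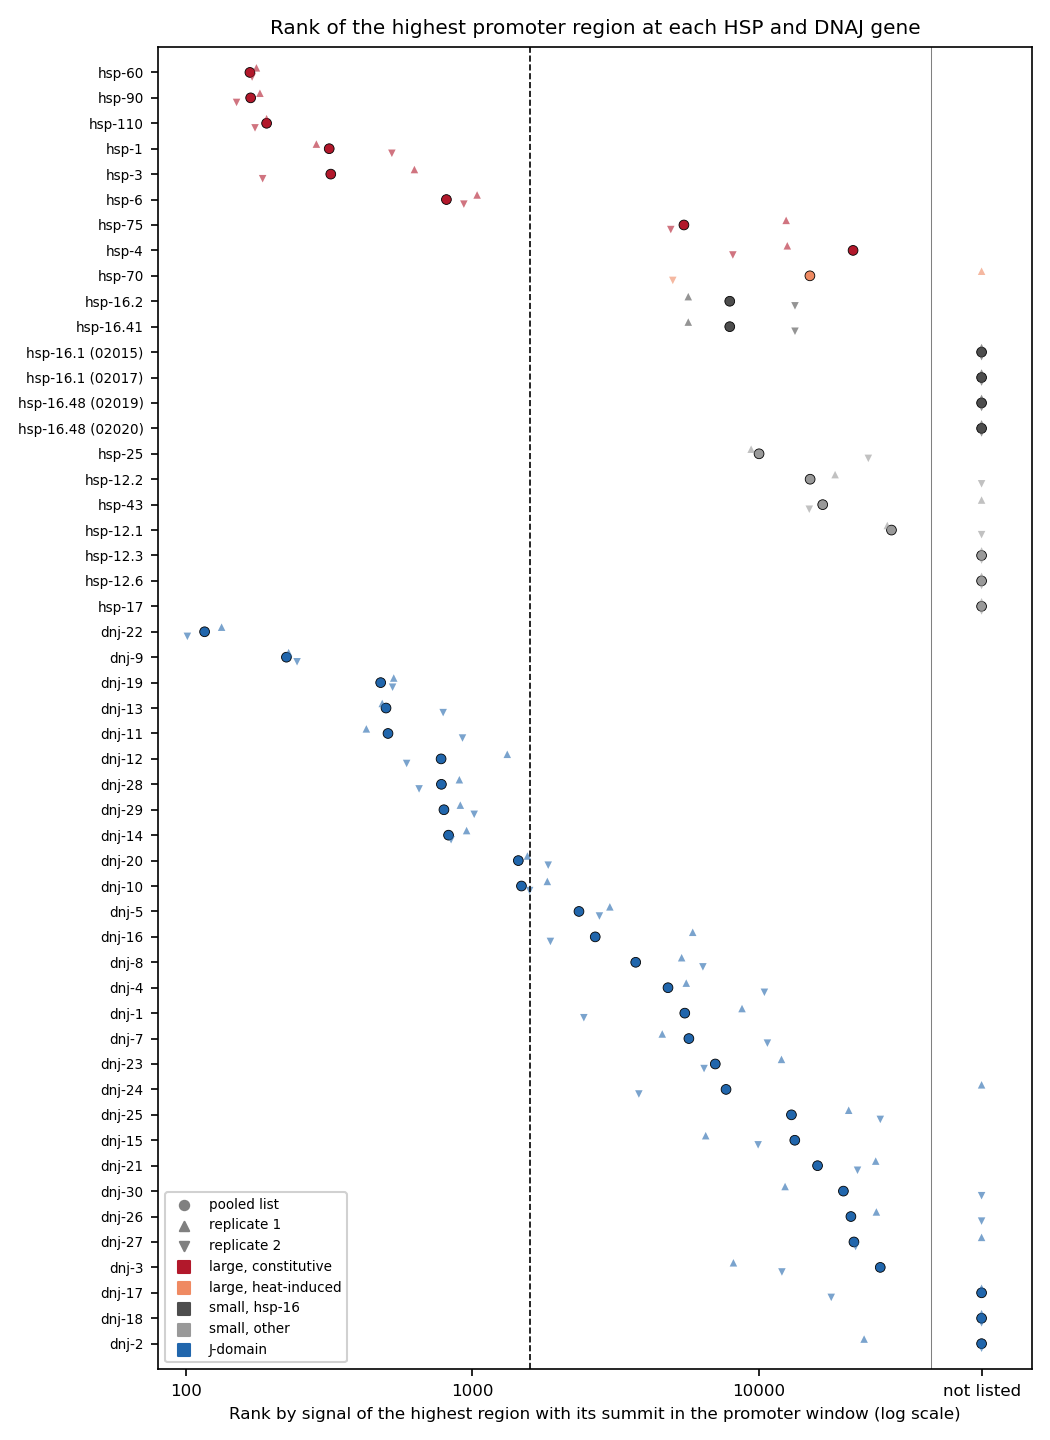
Rank by signal of the highest region with its summit in the promoter window of each of the 51 genes (log scale, 1 is the highest) in the pooled list (circles) and in replicates 1 and 2 (triangles), coloured by class. The dashed line marks rank 1584, the last IDR peak, and genes with no listed summit stand at the right. By their pooled ranks (circles) the 17 bound genes lie left of the line and all 13 small HSP genes right of it, 7 of them not in the pooled list.

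The large constitutive HSP genes cover the cytosol, the mitochondrion and the ER, and a bound gene was found for each compartment. The mitochondrial chaperonin gene hsp-60 had a peak at chrIII:1619012-1619248 with signal 273 and rank 167. It ranked 176 in replicate 1 (signal 160.1) and 170 in replicate 2 (signal 108), and its summit lay 610 bp upstream of the nearest start of hsp-60, the greatest distance among the 17. The cytosolic HSP90 gene hsp-90 had a peak at chrV:14685640-14685879 with signal 273 and rank 168, and ranks 181 and 150 in replicates 1 and 2 (signals 155 and 121). This summit is 399 bp upstream of an inner start of hsp-90 and 843 bp downstream of its outermost one, so the count of hsp-90 as bound rests on the inner start.

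The gene of the HSP70 exchange factor, hsp-110, had a peak at chrIII:8447041-8447271 with signal 250.3 and rank 191. Its ranks in replicates 1 and 2 were 191 and 174 (signals 149 and 106), with the pooled summit 252 bp upstream. The 3 genes hsp-60, hsp-90 and hsp-110 thus stood close together, within ranks 150 to 191 in every list.

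The HSP70 genes of the 3 compartments ranked lower, and hsp-1 and hsp-3 differed more between replicates than hsp-60, hsp-90 and hsp-110. The cytosolic hsp-1 had a peak at chrIV:17278521-17278664, 382 bp upstream, with signal 159.9 and rank 316, and ranked 285 in replicate 1 (signal 102) and 523 in replicate 2 (signal 54.9). The ER gene hsp-3, which encodes a BiP protein, had a peak at chrX:6091985-6092368, 53 bp upstream of the outermost of its 3 starts, with signal 158 and rank 320. It ranked 627 in replicate 1 (signal 54.4) and 185 in replicate 2 (signal 101), a ratio of 3.39 that was the largest among the 17. The mitochondrial hsp-6 had a peak at chrV:4826986-4827369, 418 bp upstream, with signal 80.7 and rank 811, and ranks 1038 and 933 in replicates 1 and 2 (signals 36.3 and 39.5). Of the other constitutive genes, hsp-4, the second BiP gene of the ER, had its highest region at pooled rank 21344 with signal 12.5. Its highest regions in replicates 1 and 2 ranked 12578 and 8117. Their summits were not at 1 place: 548 bp upstream of a start in the pooled list and replicate 1, and 145 bp downstream in replicate 2. The HSP90-like gene hsp-75 had a region of signal 23.8 at pooled rank 5477, with its summit 95 bp downstream of the start and ranks 12462 and 4928 in replicates 1 and 2. The 2 BiP genes therefore lay far apart in the pooled list, hsp-3 at rank 320 and hsp-4 at rank 21344.

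No small HSP gene had an IDR peak, and their highest regions were weak. Beside 7.71% of all protein-coding genes, 0 of 13 says little particular about this class. The divergent pair hsp-16.2 and hsp-16.41, the heat-induced small HSPs used widely as stress reporters, shares 1 region of signal 19.9 at pooled rank 7918, with its summit 27 bp upstream of hsp-16.2 and 281 bp upstream of hsp-16.41. The highest region in the 2 windows ranked 5672 in replicate 1 and 13379 in replicate 2. In replicate 2 its summit lay elsewhere, 232 bp upstream of hsp-16.2 and 11 bp downstream of hsp-16.41. The nearest IDR summits lay 61159 and 61467 bp from the starts of hsp-16.2 and hsp-16.41. The other 4 hsp-16 genes, the 2 annotated as hsp-16.1 (WBGene00002015 and WBGene00002017) and the 2 annotated as hsp-16.48 (WBGene00002019 and WBGene00002020), had no summit in the pooled list or either replicate list. These 4 are near-identical copies: 93.2% to 100% of the 36-base words in their promoter windows occur elsewhere in the genome, where reads of that length could not be placed uniquely. The read length is unknown, and the part of this in their absence from the lists was not tested. The windows of the other small HSP genes outside the hsp-16 group held no such repeated words (0%), and for hsp-16.2 and hsp-16.41 the lower value was 1.12%.

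Of the 7 small HSP genes outside the hsp-16 group, hsp-25 had a region at pooled rank 10022 (signal 18.0), hsp-12.2 at 15112 (signal 14.9), hsp-43 at 16722 (signal 14.2) and hsp-12.1 at 29070 (signal 10.4). Only hsp-25 of these 4 was listed in both replicates, at ranks 9405 and 24132. The summit in replicate 2 lay 892 bp upstream of a start, against 10 bp in the pooled list. The genes hsp-12.3, hsp-12.6 and hsp-17 had no summit in their windows in any list. An IDR summit lay 686 bp downstream of the start of hsp-12.3, outside the window, and for the other 12 small HSP genes the nearest was 2407 bp or more away. The heat-induced large gene hsp-70 had a region of signal 14.9 at pooled rank 15085, 677 bp upstream. In replicate 2 its highest region ranked 5008, 568 bp upstream, and replicate 1 listed none.

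The J-domain genes were split, with 11 bound and 18 not. The first, dnj-22, had the highest signal of all 51 genes, 371 at rank 116, at chrV:8462141-8462419 with the summit 179 bp upstream, and ranks 133 and 101 in replicates 1 and 2 (signals 210.3 and 157). Next came dnj-9 at chrII:4851708-4851933, 228 bp upstream, with signal 212 and rank 224, and ranks 228 and 244 in replicates 1 and 2 (signals 126 and 83.6). RefSeq describes both only as J domain-containing proteins.

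Bound cytosolic J-domain genes that serve HSP70 came in the middle of the list. The gene dnj-19 of the class A type had a peak at chrV:5505084-5505467 with signal 119.6 and rank 478, and ranks 531 and 526 in replicates 1 and 2 (signals 61.8 and 54.8). The class B gene dnj-13 had a peak at chrII:11545297-11545680 with signal 116 and rank 499, and ranks 484 and 790 (signals 66.6 and 42.9). The gene dnj-12, also class A, had a peak at chrI:14756619-14757002 with signal 83.5 and rank 777. Its ranks of 1323 in replicate 1 (signal 29.3) and 589 in replicate 2 (signal 50.4) differed by a ratio of 2.25. The gene dnj-11, whose product RefSeq names DnaJ homolog subfamily C member 2, had a peak at chrIV:6585414-6585797 with signal 114 and rank 507, and ranks 426 and 923 (signals 72.7 and 39.6), a ratio of 2.17.

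The other bound J-domain genes followed. At chrI:2996318-2996453, dnj-28 had signal 83.4 and rank 779, with ranks 900 and 651 in replicates 1 and 2. The counterpart of the ER translocation factor SEC63, dnj-29, had signal 82.1 and rank 795 at chrI:14113158-14113541, with ranks 907 and 1014. The gene of the synaptic cysteine string protein, dnj-14, had signal 79.7 and rank 825 at chrX:4711935-4712318, with ranks 954 and 842. The ER gene dnj-20 had signal 54.1 and rank 1446 at chrII:9619373-9619756, with ranks 1556 and 1839, and the mitochondrial gene dnj-10 had signal 53.0 and rank 1483 at chrIII:8630867-8631250, with ranks 1826 and 1584. The peak of dnj-20 is upstream of an inner start (395 bp) and 4611 bp downstream of the outermost one. These 2 genes were the last inside the IDR threshold. The first outside it were dnj-5 at pooled rank 2355 (signal 38.5), dnj-16 at 2684 (signal 35.5), dnj-8 at 3717 (signal 29.1) and dnj-4 at 4819 (signal 25.4). Of the other 14 J-domain genes 11 had pooled ranks of 5515 to 26563, and dnj-2, dnj-17 and dnj-18 had no pooled summit.

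The replicates ranked the 17 chaperone regions closely. The ratio of the lower to the higher rank had a median of 1.18 over the 17 genes and exceeded 2 at 3 of them (hsp-3, dnj-12 and dnj-11, 17.6%). Over the 1531 bound genes listed in both replicates the median was 1.43, and 366 (23.9%) exceeded 2, up to 27.1. Replicate summits of the 17 regions lay 3 to 39 bp apart, with a median of 12 bp. The replicates share 1 control alignment, and the pooled list that set the peaks was made from both, so part of this closeness is built in.

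**Figure D3:**
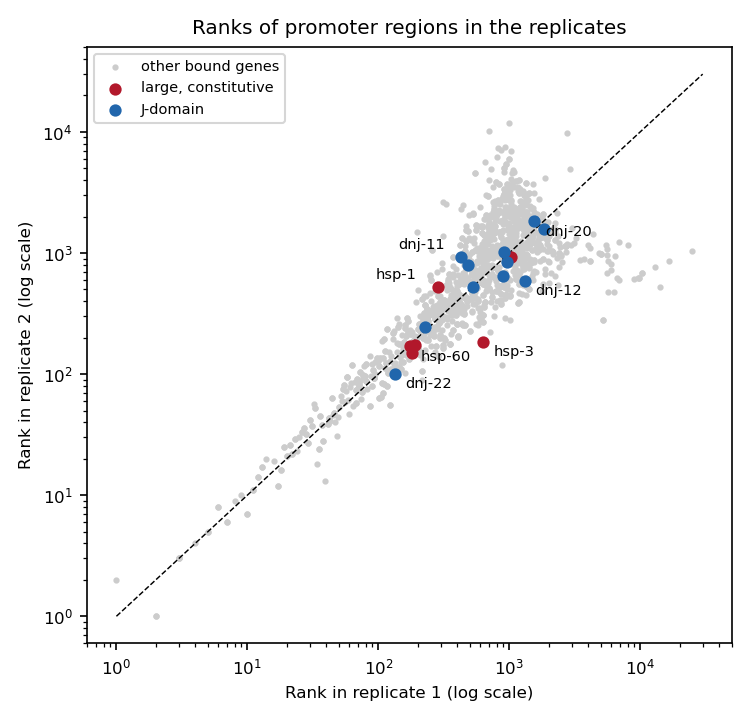
Rank of the promoter region in replicate 1 and replicate 2 for the 6 large constitutive HSP genes (red), the 11 J-domain genes (blue) and the other bound genes (grey), both axes on a log scale with the dashed line at equal rank. The chaperone genes lie near the line, with hsp-3 (627 and 185) and dnj-12 (1323 and 589) farthest below it and dnj-11 (426 and 923) above it.

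Most chaperone peaks lay between genes that diverge. Of the 17 peaks 12 (70.6%) also lay in the promoter window of another protein-coding gene, which in all 12 is on the opposite strand. Over all bound genes 59.3% share their peak with another gene, counted on either strand. The share with a partner on the opposite strand was not counted over all bound genes. The median distance of the summit to the chaperone gene's start was 252 bp, with a range of 53 to 610 bp, against 232 bp over all bound genes. The chaperone gene had the nearest start at 9 of the peaks and another gene at 8.

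The partner genes had various roles. The hsp-60 peak lay 203 bp upstream of Y22D7AL.10, which RefSeq describes as the mitochondrial 10 kDa heat shock protein, the co-chaperonin that caps HSP60, and in human the genes of these partners also lie head to head. The hsp-110 peak lay 192 bp upstream of rpn-3, a subunit of the proteasome's regulatory particle. The dnj-12 peak lay 399 bp upstream of mtx-1, a metaxin of the mitochondrial outer membrane, and the dnj-29 peak 286 bp upstream of ndua-2, a subunit of respiratory complex I, and 844 bp upstream of fld-1. The partners of the others were natc-1 at dnj-22 (60 bp), C47E8.4 at hsp-90 (276 bp), F54D5.9 at dnj-13 (661 bp), F38A5.2 at dnj-11 (206 bp), supr-1 at dnj-28 (478 bp), C37H5.5 at hsp-6 (182 bp) and glit-1 at dnj-14 (152 bp), and nhr-47 at dnj-19, with the summit 23 bp inside nhr-47. A peak list does not say which gene of a pair the tagged protein acts on. None of the 17 peaks (0 of 17) lay within 200 bp of a tRNA, snoRNA or snRNA gene, against 131 of 1584 IDR peaks (8.27%).

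**Figure D4:**
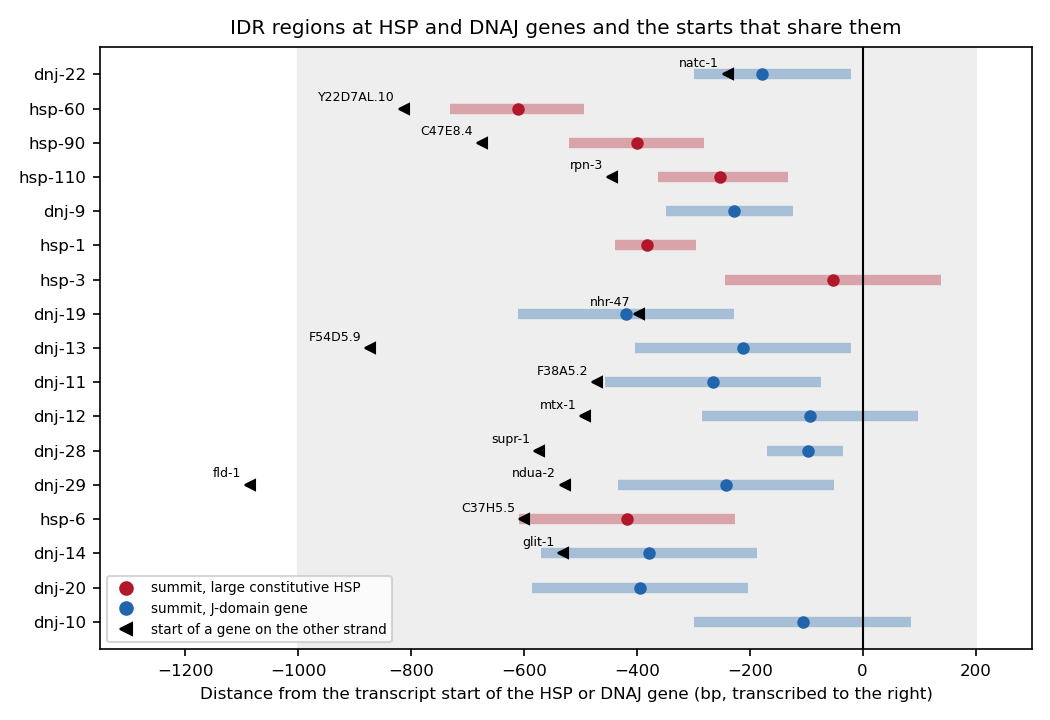
The 17 IDR regions at chaperone genes by distance from the gene's transcript start (bp, transcribed to the right), in order of rank from the top. Bars are the regions, circles the summits, black triangles the starts of genes on the other strand, and the grey field is the promoter window. Summits lie 53 to 610 bp upstream, and at 12 of 17 genes another start shares the peak.

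Heat shock elements were found in a larger share of the chaperone peaks than of peaks in general, a difference that was not tested. GAANNTTC or TTCNNGAA occurred in the 200 bp around the summit at 8 of 17 chaperone peaks (47.1%), against 257 of 1584 IDR peaks (16.2%) and 18.5% of the 1104 IDR peaks in promoter windows. In windows of equal length 500 bp to the left and right of the summits, the shares were 26.5% at the chaperone peaks and 26.8% at all IDR peaks. The element of 3 GAA units, in which GAANNTTC and TTCNNGAA overlap by 3 bases, was found at 3 of 17 chaperone peaks (hsp-60, hsp-110 and dnj-12) against 1.52% of all IDR peaks. By class, 4 of 6 constitutive genes (hsp-60, hsp-90, hsp-110 and hsp-1) and 4 of 11 J-domain genes (dnj-19, dnj-13, dnj-12 and dnj-10) held an element of either form. The nearest to a summit were 14 bp away at hsp-90, 18 bp at hsp-110, 30 bp at dnj-13, 32 bp at hsp-1 and 52 bp at dnj-12, and at hsp-60, dnj-19 and dnj-10 it lay 74 to 84 bp away. Within 100 bp in all around the summit the count was 4 of 17 (23.5%) against 6.12% of IDR peaks, and within 400 bp 12 of 17 (70.6%) against 35.1%. The 8 peaks with an element had a median rank of 397 (167 to 1483) and the 9 without it 779 (116 to 1446). The 2 ranges overlapped almost wholly. A match is a description of the letters, not a binding site of HSF-1 or of RCAT-1.

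Whole promoter windows gave another picture of the same element. An element of either form was present in the windows of 46 of 51 chaperone genes (90.2%), near the 82.6% of all protein-coding genes. These were 8 of 8 constitutive genes, hsp-70, 6 of 6 hsp-16 genes, 7 of 7 other small HSP genes and 24 of 29 J-domain genes (82.8%). The element of 3 units was present in the windows of 6 of 8 constitutive genes, and these are the 6 that were bound, while hsp-75 and hsp-4 lacked it. It was also present at hsp-70 and at all 6 hsp-16 genes, of which none was bound, at 0 of the 7 other small HSP genes and at 4 of 29 J-domain genes. The 6 hsp-16 genes are not separate promoters, since the windows of hsp-16.2 and hsp-16.41 overlap and the other 4 are near-identical copies. Over all protein-coding genes 9.18% of windows held the element of 3 units. Of the genes that held it 10.1% were bound, beside 7.71% of all genes. Windows of genes with several starts are longer, which raises the share with any element.

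Words typical of the IDR peaks were also counted under the chaperone peaks, with no test. CGTAAATC, the leading 8-mer of the first 100 IDR peaks, was found at 2 of 17 chaperone peaks (11.8%; dnj-22 and dnj-11, 16 and 64 bp from the summit), against 10.7% of all IDR peaks and 47% of the first 200. AGACGCAG, the leading 8-mer of all IDR peaks, was found at hsp-3 only (19 bp from the summit, 5.88%) against 16.2% of IDR peaks. Both 8-mers were added after the data were seen. Of the 5 leading 6-mers, GAGAGA was found at 4 of 17 chaperone peaks (23.5%) against 39.2%, AGAGAG at 4 (23.5%) against 32.8%, AGAGAA at 6 (35.3%) against 40.6%, AGAGAC at 2 (11.8%) against 29.8% and ACGCAG at 2 (11.8%) against 26.2% of all IDR peaks. In IDR peaks at promoters the shares were 32.6%, 26.6%, 36.2%, 24.4% and 24% in the same order. In the first 200 IDR peaks they were 21%, 16%, 22.5%, 20.5% and 21%, so that the first 3 words were at higher shares in the chaperone peaks than there. These words overlap each other, so their shares are not separate facts. CACGTG was found at 0 of 17 against 6.44% and TATAAA at 1 of 17 against 13.1%. In whole promoter windows CGTAAATC occurred at 8 of 51 chaperone genes (15.7%), among them 7 of 29 J-domain genes (24.1%), against 6.86% of all protein-coding genes. AGACGCAG occurred in the windows of 12 of 51 chaperone genes (23.5%), against 10.1% of all protein-coding genes. All 6 hsp-16 genes were among these 12. These 6 are not separate promoters, since the windows of hsp-16.2 and hsp-16.41 overlap and the other 4 genes are near-identical copies.

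**Figure D5:**
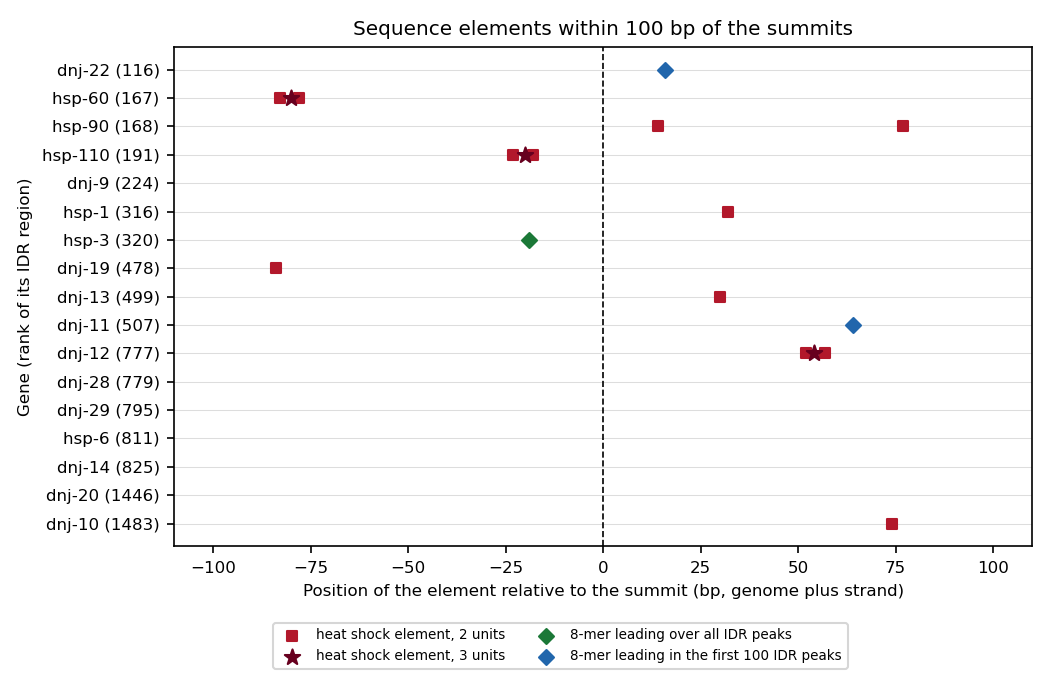
Position of sequence elements relative to the summit (bp on the plus strand of the genome) within 100 bp on either side at the 17 chaperone peaks, in order of rank from the top. Red squares and dark stars are heat shock elements of 2 and 3 units, present at 8 and 3 peaks, and the diamonds are the 8-mers found at hsp-3 (green) and at dnj-22 and dnj-11 (blue).

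Genes that work with these chaperones were also bound. Of 30 co-chaperone, related chaperone, prefoldin, heat shock factor and unfolded protein response genes 14 (46.7%) had an IDR peak, beside 7.71% of all protein-coding genes. Of these 14, 6 share the peak with another gene: pph-5 (Y39B6A.3), fkb-6 (F31D4.2), enpl-1 (imp-2), sip-1 (sly-1), pfd-1 (F01G4.6) and pfd-6 (rde-2). With each peak given to the nearest start only, 10 of 30 (33.3%) were bound, against 5.36% of all protein-coding genes. The genes lost were fkb-6, pfd-1, pph-5 and sip-1. Among the co-chaperones of HSP70 and HSP90, 5 of 10 were bound: the HSP90-associated phosphatase gene pph-5 at rank 39 (signal 782, ranks 33 and 52 in replicates 1 and 2), the BAG nucleotide exchange factor bag-1 at 239 (signal 201), sti-1, which links HSP70 to HSP90, at 487 (signal 119), the BAG-domain gene unc-23 at 843 (signal 78.4) and the prolyl isomerase fkb-6 at 888 (signal 75.2). The peak shared by pph-5 and Y39B6A.3 ranked above those of all 51 chaperone genes.

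Of 3 further chaperones by family, sip-1, a small HSP gene by sequence that is outside the name rule, was bound at rank 215 (signal 221, ranks 200 and 237 in replicates 1 and 2). Its peak, at chrIII:10506937-10507176, is shared with sly-1, so a small HSP by family was bound although the 13 named hsp- were not. The ER HSP90 gene enpl-1 was bound at rank 346 (signal 150.0). Of the 7 genes of the unfolded protein responses 4 were bound, the transcription factor genes xbp-1 (signal 105, ranks 864 and 400 in replicates 1 and 2), atfs-1 (rank 892, signal 75.2) and atf-6 (rank 1345, signal 56.5) and the ubiquitin-like ubl-5 (rank 1246, signal 59.4). Of the 6 prefoldin genes, whose complex hands nascent actin and tubulin to CCT, 3 were bound: pfd-1 (rank 262, signal 186), pfd-6 (rank 388, signal 140.4) and pfd-3 (rank 1180, signal 61.7).

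None of the 4 genes of the heat shock factor group (hsf-1, hsb-1, ddl-1 and ddl-2) was bound, where 7.71% of all protein-coding genes were, so that 0 of 4 says nothing particular about this group. The highest region of hsf-1 itself stood at pooled rank 16628. In the CCT chaperonin ring, which folds actin and tubulin in the cytosol, 4 of 8 genes were bound (cct-1, cct-6, cct-7 and cct-8), with a median rank of 89.5, beside 7.71% of all protein-coding genes. All 4 share their peaks with another gene, and with each peak given to the nearest start only, 0 of 8 CCT genes were bound, against 5.36% of all protein-coding genes.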

How the data were processed

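Peak lists in narrowPeak format on ce11 were used: 1 relaxed list per biological replicate, 1 of the pooled replicates and the optimal IDR list. The list of files deposited with the samples says that each relaxed list was made from the replicate alignments and a control alignment. The signal per region and the −log10 q-value were deposited by the authors, and q was 3.43 on that scale for the 15 highest of the 17 chaperone peaks. The summit offset from the region start, also deposited, set each summit. The sources used here name no caller, aligner, IDR threshold or read depth, so the depth per sample is unknown and no counting error is attached to a region. Lists on ce10 were not used.

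Genes came from Ensembl release 115 (protein-coding transcripts only), products and sequence from RefSeq (51 of 51 genes matched a product). A gene's region is that of highest signal with its summit from 1000 bp upstream to 200 bp downstream of a start. Shares, medians and ranks are descriptions, with no test, and the background is all 19973 protein-coding genes. Elements were searched on both strands within 200 bp centred on the summit. Assignment was checked on planted summits. Named are all bound genes of the lists, all small and large HSP genes, and unbound hsp- and dnj- genes with a pooled rank within 5000. Also named are rcat-1 and genes sharing a peak with an hsp- or dnj- gene or with 1 of the 30 pathway genes. A few others are named to account for every member or for a list with no bound gene. The members and lists were chosen with earlier results of these data known. Alternatives were other windows, starts, peak lists and element windows, leaving out a replicate, and noncoding isoforms, the last added after the data were seen. Tools were Python 3.11.15, pandas 2.3.3, numpy 2.4.6 and matplotlib 3.10.9.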

Additional observations from a re-analysis of the deposited data

How the results depend on the processing

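Assigning each peak to the nearest transcript start left 9 bound chaperone genes instead of 17 (without dnj-11, dnj-14, dnj-19, dnj-22, hsp-110, hsp-6, hsp-60 and hsp-90), 2 instead of 6 constitutive genes, 7 instead of 11 J-domain genes and 0 instead of 4 CCT genes, since a peak then counts for 1 gene only. With the 50% of IDR peaks of highest signal, 7 instead of 11 J-domain genes (24.1%) and 8 instead of 14 pathway genes (26.7%) were bound. The share of all protein-coding genes fell too, from 7.71% to 4.57%. The median rank of the bound chaperone genes, 499 in the pooled list, was 531 to 589 when either replicate was left out and the other's own list used. The heat shock element of either form was found at 4 instead of 8 peaks within 100 bp around the summit, and that of 3 units at 1 peak within 100 bp and 5 within 400 bp, instead of 3, since the searched length differs. The other 87 alternative values stayed within the limits set for a change, which for counts was a ratio of 1.5. That limit let pass 12 instead of 17 bound chaperone genes with the 50% of IDR peaks of highest signal. Many of the 87 were 0 beside 0, for hsp-70 and for the small HSP genes, which entered both as a whole and by group. The 87 values are therefore not separate checks. No small HSP gene was bound in any of the alternatives run. No paired analysis was possible because the samples form 1 group. With depth unknown and 2 replicates sharing a control, an unlisted gene is not shown to be unbound.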
